A study of Mus musculus with 12 samples.

Results

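Voltage-gated ion channel genes were examined as a group for acetylation of histone H3 at lysine 14 (H3K14ac) in cultured neural stem and progenitor cells of the mouse. The group took in every gene whose mouse symbol follows the naming of potassium (Kcn and a number), sodium (Scn and a number with a or b) or calcium (Cacna, Cacnb, Cacng) channel subunits and whose length in the deposited tables is under 400 kb. It held 122 of the 27095 genes counted, of which 86 were potassium, 14 sodium and 22 calcium channel genes. By symbol, 132 genes match at any length, and 10 lie over the limit. Just inside it stood Cacnb2 with 383.6 kb and Kcnh8 with 376.3 kb, whose start windows had log2 folds of wild-type ChIP over input of 1.11 and 0.05. Just outside stood Kcnb2 with 401.8 kb and Cacna2d1 with 439.8 kb, with 0.21 and 0.87. The symbols take in more than voltage-gated pores: besides 36 pore and modifier subunits of voltage-gated potassium channels it holds 15 inward rectifiers (Kcnj), 14 tandem-pore leak channels (Kcnk), 7 channels opened by calcium or sodium ions, and 14 auxiliary potassium channel subunits. The sodium genes were 10 pore (alpha) and 4 beta subunits. The calcium genes were 8 pore (alpha1), 2 alpha2delta, 4 beta and 8 gamma subunits, and some gamma subunits are better known as partners of AMPA receptors.

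Voltage-gated channels open when the membrane potential changes. In neurons, sodium channels carry the upstroke of the action potential, potassium channels end it and set the resting potential, and calcium channels couple it to transmitter release and to signalling. Neural progenitors have little electrical excitability, and much of the channel repertoire is switched on as neurons mature. H3K14ac is a mark of active chromatin that HBO1 (gene Kat7) and other acetyltransferases place on nucleosomes at gene starts and elsewhere.

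The cells came from the cortex and ganglionic eminences of E14.5 mouse embryos and had been expanded as neurospheres. In the differentiating condition, the cells were dissociated and grown on laminin in cortical neuron medium, and in the proliferating condition they stayed in neurosphere medium. Wild-type (WT) chromatin was precipitated with an antibody to H3K14ac in 3 libraries per condition. Each condition also had 1 library of H3K14ac ChIP from Hbo1 null cells, 1 of IgG ChIP and 1 of input, which is chromatin sequenced without precipitation. The design speaks of 4 wild-type foetuses and each ChIP used 10 x 1e6 cells. No label ties a replicate number to an animal or a culture, nor says how Hbo1 was deleted. The p-values therefore measure only how much libraries vary, and that variation may be technical. In such bulk samples, fewer marked cells and less mark per cell cannot be told apart.

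Gene body totals ran from 12549913 to 17074249 counts in differentiating and from 3992697 to 7611239 in proliferating WT libraries. They were 2771713 and 2526252 for differentiating and proliferating IgG, and 12689734 and 11871306 for differentiating and proliferating input. The null libraries held 320601 (differentiating) and 64071 (proliferating) counts, so channel genes can be read there only as sums. Of 10 neural stem and progenitor genes, 8 had start windows called higher in WT ChIP than in input (median log2 fold 1.49). Of the lists for other cells, 1 of 4 testable neuron genes, 2 of 8 astrocyte, 1 of 8 oligodendrocyte lineage and 0 of 5 microglia windows were called, and likewise 0 of 7 endothelial and mesenchymal and 0 of 9 liver, muscle and blood windows. Summed counts of 5 Y-linked genes per 1e6 gene body counts were 9.08, 9.94 and 209 in differentiating and 47.1, 8.77 and 8.93 in proliferating WT libraries, against 228 and 187 in IgG and 7.80 and 6.57 in input. What sets these counts was not tested, and they are given again beside the X-linked channel genes.

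The signal at channel gene starts was close to that of input. Start signal was counted in a window of 1 kb at the transcription start site and is given as counts per 1e6 gene body counts of the library (CPM). Averaged over the 6 WT libraries, the 122 windows ranged from 0.295 CPM at Kcnj14, an inward rectifier, to 3.12 CPM at Kcnd3, a transient potassium channel of Shal type. Their median was 1.21 CPM, against 1.29 CPM over all genes. Of all genes, 3565 are at most 1 kb long and had equal counts in window and body, while no member is that short. The member and all-gene medians are therefore not over windows of like length. The medians were 1.21 CPM for potassium, 1.20 CPM for sodium and 1.21 CPM for calcium windows. Behind Kcnd3 stood Kcnc1 (2.69 CPM), Kcna2 (2.62 CPM), Kcnk2 (2.56 CPM) and Kcna3 (2.53 CPM), all potassium channel genes, and then Cacnb2 with 2.30 CPM. At this depth a window held few reads. The median member count was 13 to 18 in differentiating and 4 to 9 in proliferating WT libraries.

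Summed over each class and scaled to gene body totals, windows exceeded input in all 3 libraries only for potassium channels in proliferating cells, where scaling to window totals turned the mean log2 to -0.20. The potassium sum was 1.16, 0.944 and 0.999 times input in the 3 differentiating libraries and 1.37, 1.16 and 1.18 times input in the 3 proliferating libraries. All 3 proliferating libraries lay above input, and the differentiating ones lay on both sides of it. As log2 ratios, the potassium sums were 0.05 ± 0.16 in differentiating and 0.30 ± 0.13 in proliferating cells (SD, n = 3 each). The sodium sums were -0.03 ± 0.12 in differentiating and 0.05 ± 0.22 in proliferating cells, and in both conditions the libraries lay on both sides of input. The calcium sums were 0.14 ± 0.18 in differentiating and 0.20 ± 0.25 in proliferating cells, again with libraries on both sides. The sum over all genes was 0.09 ± 0.09 in differentiating and 0.51 ± 0.06 in proliferating cells. In proliferating cells the mean of each channel class was below the mean for all genes, with no test made. That order did not hold for potassium in proliferating replicate 1. Against IgG the log2 ratios were 0.44 ± 0.16 in differentiating and 0.31 ± 0.13 in proliferating cells for potassium, 0.28 ± 0.12 and 0.01 ± 0.22 for sodium, and 0.09 ± 0.18 and 0.42 ± 0.25 for calcium. All genes gave 0.25 ± 0.09 in differentiating and 0.51 ± 0.06 in proliferating cells. The mean potassium and sodium ratios were above that of all genes in differentiating cells and below it in proliferating cells, with no test made. Proliferating replicate 1 was the highest library of its condition in all 3 classes. Without it the proliferating mean log2 ratios to input were 0.23 for potassium, -0.08 for sodium and 0.07 for calcium. Scaled to window totals, the proliferating means were -0.45 for sodium and -0.31 for calcium.

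**Figure D1:**
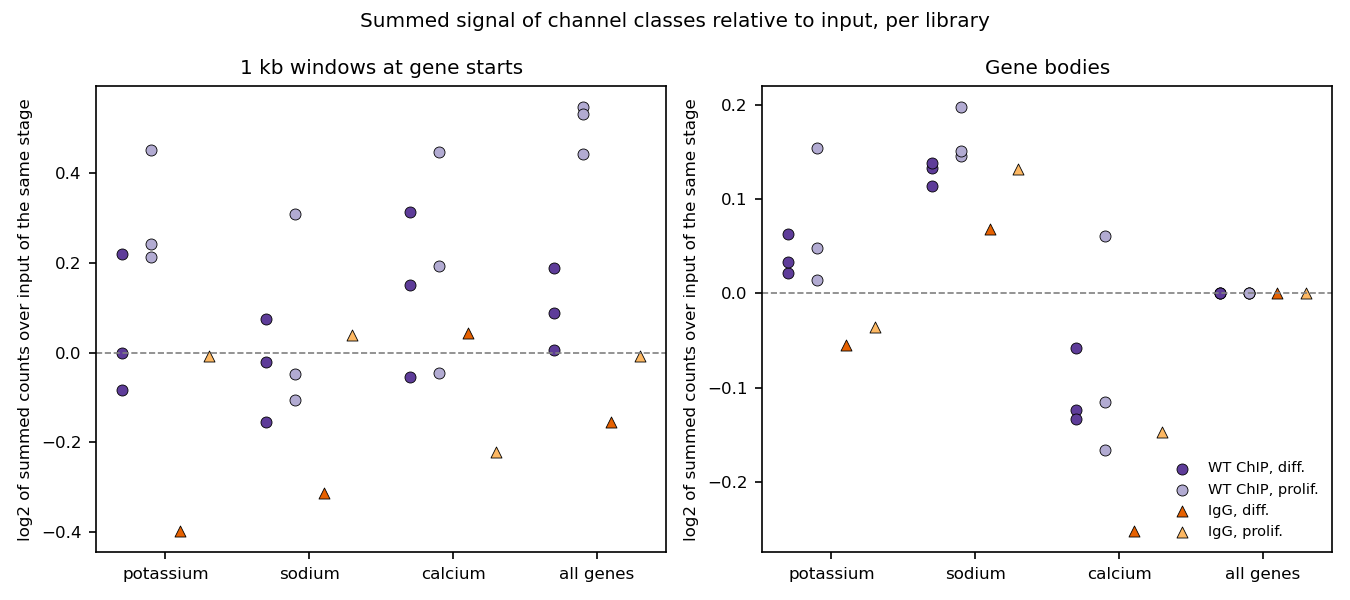
Summed counts of potassium, sodium and calcium channel genes and of all genes in each WT ChIP and IgG library, as log2 over the input of the same condition (vertical axis), for 1 kb start windows (left) and gene bodies (right), scaled to gene body totals. Each point is 1 library. In start windows the 3 proliferating potassium sums lie above 0 on this scaling (mean -0.20 per window totals), while sodium sums lie on both sides of 0. In gene bodies sodium sums are above 0 and most calcium sums below 0, in WT and IgG libraries.

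Counts were only slightly denser at the start of a channel gene than over its whole length. Start windows held 1.12 ± 0.09 times the count density of whole channel genes in differentiating and 1.38 ± 0.08 times in proliferating WT libraries (SD, n = 3 each). Input gave 1.09 and 1.19 for the same conditions. Over all genes these ratios were 1.38 ± 0.09 in differentiating and 1.91 ± 0.07 in proliferating WT libraries, with 1.29 and 1.34 in input. The ratio was lower for channel genes than for all genes in WT ChIP and already in input, with no test made.

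Against input, 6 of the 101 channel windows that could be tested were higher in WT ChIP and 0 were lower (edgeR, adjusted p under 0.05). Over all genes tested, 11.6% were called higher and 0.881% lower, so the share among channel genes was below the background. At an unadjusted p under 0.05, 3 channel windows were lower, and DESeq2 called 1 higher and 0 lower. DESeq2 gave an adjusted p to only 4003 of the 21557 windows of all genes, and windows without one could not be called. It also scaled libraries by its own size factors, not by gene body totals. The other 21 members averaged under 10 counts in the libraries of the fit and were not tested. By class, 4 of 70 potassium, 0 of 11 sodium and 2 of 20 calcium windows were called. The median log2 fold was 0.10 over the tested members, 0.15 for potassium, 0.08 for sodium and 0.03 for calcium windows, against 0.25 over all genes tested. Channel genes are long, and long genes at large stood higher. Among genes of 50 to 150 kb the median was 0.23 for channel genes and 0.51 for all genes, and among those of 150 to 400 kb it was 0.08 and 0.48.

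The 4 potassium genes called over input all encode voltage-gated pore subunits, from a family of 36 members that includes modifier subunits. Over all genes tested, 11.6% of windows were called higher. Kcna2, a Shaker-type (Kv1) subunit of axons, had 2.63, 1.25 and 1.82 CPM in the 3 differentiating WT libraries and 2.64, 4.26 and 3.15 CPM in the 3 proliferating ones, against 0.630 and 1.18 CPM in differentiating and proliferating input. Every WT library was above the input of its condition. Its log2 fold over input was 1.52 (SE 0.40, edgeR adjusted p = 0.00527). This was the member with the smallest p, and of the 11 alternatives that tested it, it missed the threshold only without the proliferating input, where edgeR gave an adjusted p of 0.252. Kcnd3, whose Shal-type channels carry the A-type current, had 1.20, 1.56 and 2.40 CPM in differentiating and 3.74, 5.76 and 4.07 CPM in proliferating WT libraries, against 1.42 CPM in differentiating and 0.590 CPM in proliferating input. All 3 proliferating libraries were far above their input, and the differentiating ones lay on both sides of theirs. The log2 fold was 1.40 (SE 0.40, edgeR adjusted p = 0.0108), with 0.31 (adjusted p = 0.870) without the proliferating input and 2.89 without the differentiating one.

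Kcnc1, a Shaw-type (Kv3) subunit of fast-spiking neurons, followed the same pattern as Kcnd3. It had 1.99, 1.25 and 1.23 CPM in differentiating and 3.74, 4.76 and 3.15 CPM in proliferating WT libraries, against 1.50 CPM in differentiating and 0.505 CPM in proliferating input. Its log2 fold of 1.16 (SE 0.39, edgeR adjusted p = 0.0311) became -0.026 (edgeR adjusted p = 0.993) without the proliferating input and 2.86 without the differentiating one. Kcna6, another Shaker-type subunit, had 1.99, 0.939 and 1.41 CPM in differentiating and 3.08, 1.00 and 3.02 CPM in proliferating WT libraries, against 0.867 CPM in differentiating and 0.842 CPM in proliferating input. Each WT library was above its input, by little in replicate 2 of both conditions, and the log2 fold was 1.14 (SE 0.37, edgeR adjusted p = 0.0249).

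The 2 calcium channel genes called were Cacna1h, the pore of a low-threshold T-type channel, and Cacnb2, a beta subunit that brings high-threshold pores to the membrane. Cacna1h had 1.99, 1.49 and 1.52 CPM in differentiating and 2.86, 1.50 and 2.36 CPM in proliferating WT libraries, against 0.473 CPM in differentiating and 1.35 CPM in proliferating input. All WT libraries were above their input, and the log2 fold was 1.17 (SE 0.37, edgeR adjusted p = 0.0229). Cacnb2 had 1.51, 1.41 and 1.05 CPM in differentiating and 2.42, 4.01 and 3.42 CPM in proliferating WT libraries, against 0.709 CPM in differentiating and 1.35 CPM in proliferating input. It too was above input throughout (log2 fold 1.11, SE 0.38, edgeR adjusted p = 0.0328). Cacna1h, Cacnb2 and Kcnd3 each overlap another annotated gene, as do 22 members in all. The sources do not say that strand was used, so reads of overlapping genes cannot be told apart. The calling of all 6 windows rests on 2 input libraries. Without the proliferating input all 6 calls were lost, as were nearly all calls over all genes. Without the differentiating input calls became more frequent, among members and over all genes alike. Each of these refits leaves 1 input library, so no counts are given. Without proliferating replicate 3 or without differentiating replicate 1, the calls were Kcna2, Kcnd3 and Cacna1h. With TMM scaling Kcna2 and Kcnd3 were called higher and Cacna1f lower.

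**Figure D2:**
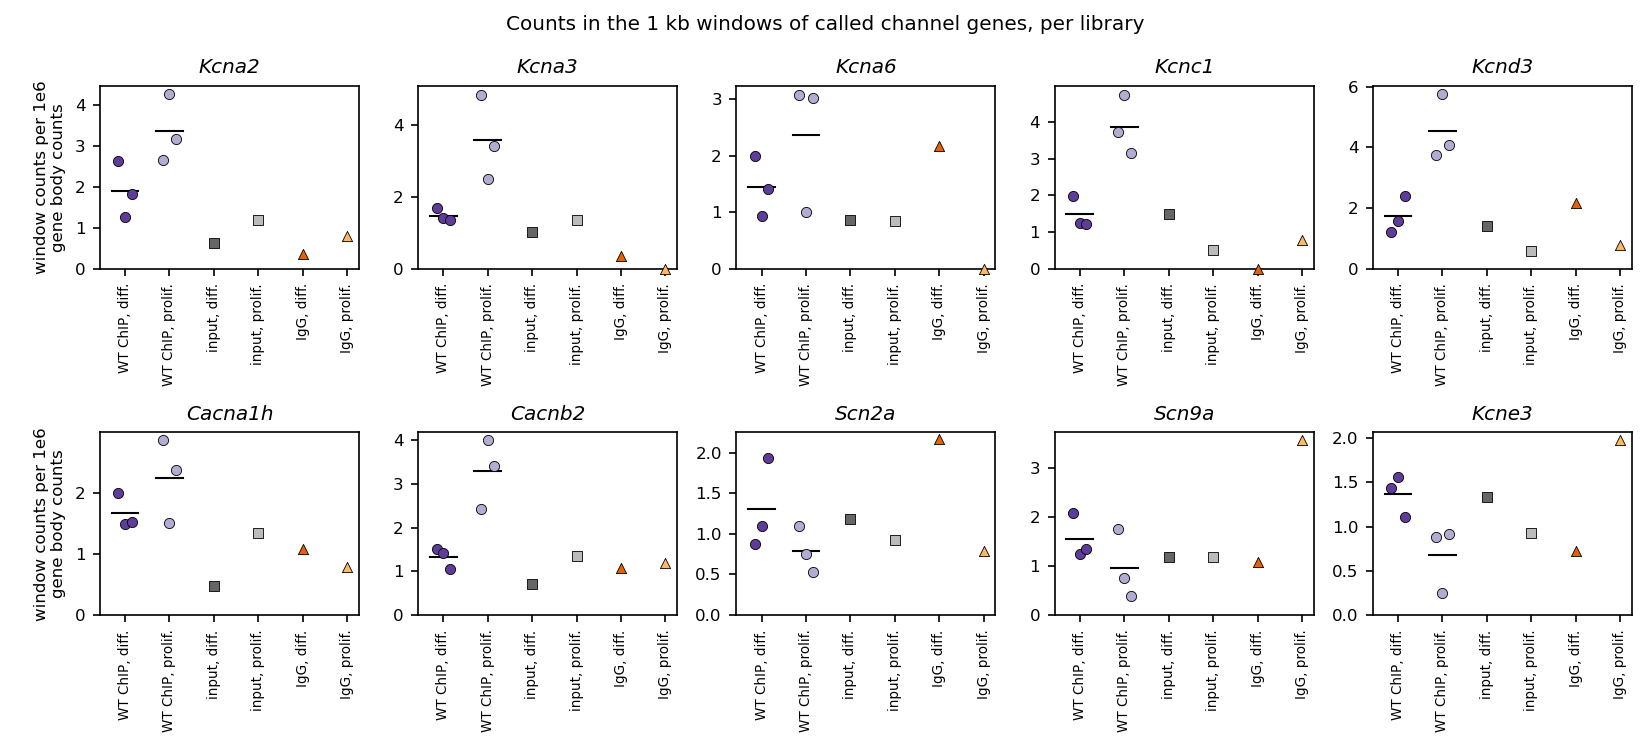
Counts in the 1 kb start windows of 10 channel genes called in at least 1 comparison, per 1e6 gene body counts (vertical axis, from 0), in each WT ChIP, input and IgG library. Points are libraries and bars are means of 3 WT libraries. Kcna2, Kcna3, Kcnc1, Kcnd3 and Cacnb2 are highest in proliferating WT libraries, while Scn2a, Scn9a and Kcne3 have higher means in differentiating than in proliferating WT libraries.

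No sodium channel window was called over input (edgeR, 0 of 11, with 1 at an unadjusted p under 0.05 and 0 by DESeq2). The DESeq2 count covers only windows given an adjusted p, 4003 of 21557 over all genes. The sodium window with the smallest p was Scn11a, a channel of pain-sensing neurons, at a log2 fold of -0.71 (SE 0.35, edgeR adjusted p = 0.167). It had 0.956, 0.861 and 1.23 CPM in differentiating and 0.880, 0.501 and 0.920 CPM in proliferating WT libraries, against 1.50 CPM in differentiating and 1.60 CPM in proliferating input. All 6 WT libraries were below input. The main sodium channel pores of central neurons had folds near 0, with 0.09 for Scn1a (edgeR adjusted p = 0.899), 0.02 for Scn2a (0.980), 0.32 for Scn3a (0.641) and 0.06 for Scn8a (0.944), all on the log2 scale. Kcnk1 stood at 0.98 (edgeR adjusted p = 0.0835), Kcnk2 at 0.98 (0.0688) and Kcnk3 at 0.81 (0.134), 3 leak channels that help set the resting potential. The M-current gene Kcnq3 stood at -0.04, and Kcnj10, the glial inward rectifier, at 0.02. Kcnh2, the hERG channel, stood at -0.15 and Kcnab2, a beta subunit, at 0.39. Among calcium channels, Cacna1a and Cacna1b, the P/Q-type and N-type pores, stood at -0.31 and 0.10, the T-type pore Cacna1g at 0.34, the muscle pore Cacna1s at -0.22 and Cacnb3 at -0.05. The gamma subunits Cacng2 (stargazin) and Cacng4 stood at -0.00 and 0.82. None of these passed the threshold, and Scn4a and Kcne1 were too low to test.

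Against IgG, 39 of the 122 windows could be tested, because the IgG libraries were shallow, and 3 were higher and 0 lower (edgeR, with 0 lower at an unadjusted p under 0.05 and 0 called by DESeq2 in either direction). The background was 5.13% higher and 0.205% lower over all genes tested. All 3 were potassium channel genes, of 30 tested. The medians were 0.52 for members and 0.67 for all genes. Member windows had a median of 3 counts in proliferating and 2 in differentiating IgG. A window therefore passed the filter mainly through its WT counts, and the 0 lower and the positive medians follow in part from that. With no filter Kcnk9 was called lower. DESeq2 gave an adjusted p to 6522 of the 13158 windows of all genes, and windows without one could not be called. Kcna3, a Shaker-type channel of lymphocytes and microglia as well as neurons, had 1.67, 1.41 and 1.35 CPM in differentiating and 4.84, 2.50 and 3.42 CPM in proliferating WT libraries, against 0.361 CPM in differentiating IgG and 0 in proliferating IgG. The IgG values stand for 1 count and 0 counts, so the fitted log2 fold of 3.60 (SE 0.93, edgeR adjusted p = 0.0112) depends on the prior count. From summed counts, WT was 10.9 times IgG with a 95% exact interval of 1.91 to 432. Kcnc1 had a log2 fold of 2.73 (SE 0.79, edgeR adjusted p = 0.0234) against 0 CPM in differentiating and 0.792 CPM in proliferating IgG, and its ratio from summed counts was 5.52 (1.50 to 46.1). Kcna2 had 2.15 (SE 0.71, edgeR adjusted p = 0.0495) against 0.361 CPM in differentiating and 0.792 CPM in proliferating IgG, with a ratio of 4.01 (1.34 to 19.7). In IgG these ratios rest on 1, 2 and 3 counts for Kcna3, Kcnc1 and Kcna2. These comparisons share their WT libraries with those against input. Kcna3 over input reached 1.00 (SE 0.38, edgeR adjusted p = 0.0624). With TMM scaling, or without the proliferating IgG library, none of the 3 was called over IgG. Kcna2 missed the threshold in 9 of 11 alternatives, among them leaving out any proliferating WT library, differentiating replicate 1 or the differentiating IgG, and Kcnc1 in 4 of 11.

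**Figure D3:**
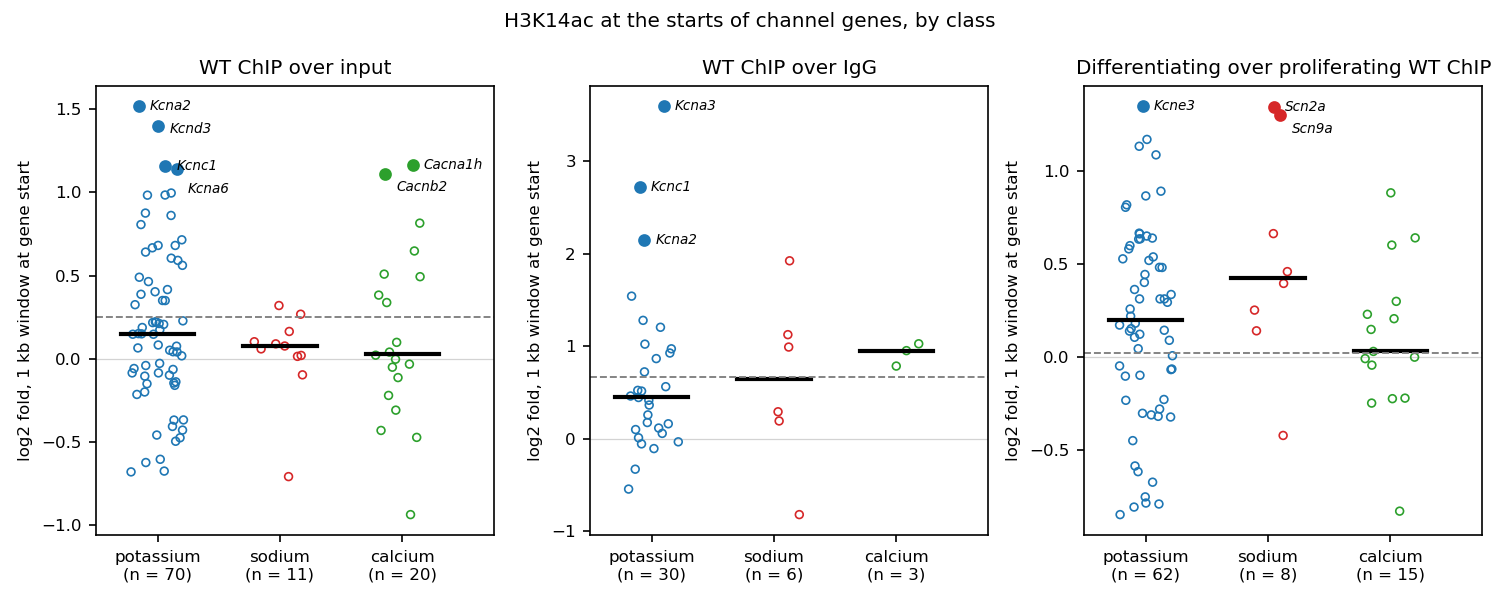
Log2 folds of the start windows of channel genes by class for WT ChIP over input, WT ChIP over IgG, and differentiating over proliferating WT ChIP, each on its own vertical axis. Each circle is a gene, filled and named where edgeR called it, black bars are class medians and the dashed line is the median of all genes tested. The called windows over input and IgG are potassium or calcium channel genes, and those higher in differentiating cells are Scn2a, Scn9a and Kcne3.

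Kcna3 and Kcna2 are neighbours on chromosome 3, at chr3:107036162-107038129 and chr3:107090883-107115005, with Kcna10 and Kcnc4 farther along the same stretch. Kcna10 and Kcnc4 had log2 folds over input of -0.16 and 0.42, and neither was called. The related Shaker-type cluster on chromosome 6 holds Kcna5, Kcna1 and Kcna6. There Kcna6 was called, Kcna5 stood at 0.33 and Kcna1 was too low to test. In all, 37 members lay in 15 such clusters with gaps of at most 250 kb.

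Most of the windows called over input, or over IgG, had a promoter rich in CpG. RefSeq promoters (GRCm38.p6, from 250 bases before to 50 after the most upstream start in the promoter table, which can lie inside the RefSeq gene span) were found for 88 of the 122 members and 18458 genes of the tables. For 47 of the 88 members, the start used there gave the deposited gene length to within 0.1 kb, and this held for the 4 promoters shown here. A promoter with a ratio of observed to expected CpG of at least 0.6 was counted as CpG-rich. This held for 18 of 62 potassium, 2 of 10 sodium and 9 of 16 calcium promoters, against 47.8% of all promoters. The promoters of the member with the smallest p over input (Kcna2), over IgG (Kcna3) and between conditions (Scn9a), and of the sodium member with the smallest p over input (Scn11a), are given 5′ to 3′ with every CpG in capitals.
Kcna2, chr3:107101317-107101616, plus strand: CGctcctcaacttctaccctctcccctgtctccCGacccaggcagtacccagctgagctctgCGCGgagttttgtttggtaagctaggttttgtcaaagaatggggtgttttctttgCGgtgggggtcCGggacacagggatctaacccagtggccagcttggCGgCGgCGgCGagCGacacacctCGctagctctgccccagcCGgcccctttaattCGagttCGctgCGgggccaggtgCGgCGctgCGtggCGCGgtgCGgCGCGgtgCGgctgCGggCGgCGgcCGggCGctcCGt
Kcna3, chr3:107035912-107036211, plus strand: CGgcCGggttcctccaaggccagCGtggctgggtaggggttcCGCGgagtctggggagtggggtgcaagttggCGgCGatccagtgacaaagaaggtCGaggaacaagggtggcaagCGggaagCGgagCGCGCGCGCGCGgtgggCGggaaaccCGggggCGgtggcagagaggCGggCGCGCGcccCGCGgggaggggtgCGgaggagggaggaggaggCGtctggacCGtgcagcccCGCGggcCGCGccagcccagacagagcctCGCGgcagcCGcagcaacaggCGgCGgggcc
Scn9a, chr2:66634913-66635212, minus strand: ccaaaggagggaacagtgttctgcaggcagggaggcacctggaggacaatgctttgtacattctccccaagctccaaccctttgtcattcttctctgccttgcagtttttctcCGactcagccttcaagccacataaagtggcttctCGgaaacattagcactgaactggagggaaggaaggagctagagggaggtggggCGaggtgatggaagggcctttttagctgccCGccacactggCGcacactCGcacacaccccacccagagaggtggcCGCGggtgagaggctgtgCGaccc
Scn11a, chr9:119825407-119825706, minus strand: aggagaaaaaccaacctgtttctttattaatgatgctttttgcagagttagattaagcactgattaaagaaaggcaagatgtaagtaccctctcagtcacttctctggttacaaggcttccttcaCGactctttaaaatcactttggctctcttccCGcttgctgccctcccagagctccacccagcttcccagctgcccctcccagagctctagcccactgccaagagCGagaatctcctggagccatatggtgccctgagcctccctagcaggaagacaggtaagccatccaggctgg
The Kcna2 and Kcna3 promoters hold 31 and 37 CpG in 300 bases (ratios of observed to expected 0.93 and 0.95), the Scn9a and Scn11a promoters 9 and 3 (0.37 and 0.16).

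Among members tested over input, 4 of 25 with a CpG-rich promoter and 1 of 53 with another promoter were called higher, with median log2 folds of 0.18 and 0.04. The same split over all genes gave 19.5% and 4.85% called higher, with medians of 0.53 and 0.04. Of the 6 called genes, 5 were matched to a promoter. Across 78 members, the CpG ratio and the log2 fold over input had a Pearson r of 0.39 and a Spearman rho of 0.32, and across 15874 genes 0.40 and 0.42. These are descriptions across genes, which share libraries and base composition. Over IgG, the 3 windows called were among the 11 with a CpG-rich promoter, and 0 of 20 with another promoter were called. The same split over all genes gave 6.92% and 2.62% called higher. For the difference between conditions the order of the medians was opposite. The median log2 fold of differentiating over proliferating cells was -0.01 over 21 members with a CpG-rich promoter and 0.31 over 44 others, against -0.25 and 0.32 for all genes.

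Short motifs were sought on both strands of the same promoters, as letters only. The GC box GGGCGG was in 32 of 62 potassium, 1 of 10 sodium and 10 of 16 calcium promoters, against 46.0% of all promoters, and both Kcna2 and Kcna3 hold it. The left arm of the site of the neuronal repressor REST (TTCAGCACC) was in 1 member promoter, that of Kcnh6, and in 0.42% of all promoters. The right arm (GGACAG) was in 25 of 88 member promoters and 22.6% of all. The E-box CAGCTG was in 24 of 88 member promoters and 15.6% of all, Kcna2 and Scn11a among them. TATAAA was in 3 of 88 and 13.1%, TGANTCA, the AP-1 site, in 3 of 88 and 7.32%, and TGACGTCA, the cAMP response element, in 0 of 88 and 2.34%.

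Between conditions, 3 of the 85 testable windows were higher in differentiating WT cells and 0 were lower (edgeR with TMM scaling of window totals; 6 were lower at an unadjusted p under 0.05, and DESeq2 called 0 in either direction). The edgeR background was 2.03% higher and 4.57% lower. DESeq2 gave an adjusted p to only 3239 of the 19477 windows of all genes, and windows without one could not be called. The medians were 0.21 for members, 0.20 for potassium, 0.43 for sodium and 0.03 for calcium windows, against 0.02 over all genes tested. On the TMM scale, in counts per 1e6 window counts, Scn9a had 55.1, 39.3 and 40.6 in differentiating and 36.8, 15.7 and 8.10 in proliferating libraries. The groups did not overlap, and its log2 fold was 1.30 (SE 0.40, edgeR adjusted p = 0.0305). Scn2a, the sodium channel of immature axons, had 23.3, 34.4 and 58.3 in differentiating and 23.0, 15.7 and 10.8 in proliferating libraries (log2 fold 1.35, SE 0.44, edgeR adjusted p = 0.0410), and the groups nearly met. Kcne3, a small auxiliary subunit, had 38.2, 49.1 and 33.5 in differentiating and 18.4, 5.22 and 18.9 in proliferating libraries (log2 fold 1.35, SE 0.44, edgeR adjusted p = 0.0412). In raw reads these are small numbers, for Scn9a 26, 16 and 23 in differentiating and 8, 3 and 3 in proliferating libraries. None of the 3 was called over input. As window counts per 1e6 gene body counts, Scn9a had 2.07, 1.25 and 1.35 CPM in differentiating and 1.76, 0.751 and 0.394 CPM in proliferating WT libraries, against 1.18 CPM in each input.

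The difference between conditions depended on the scaling. With gene body totals as library sizes the 3 calls were lost and 12 members were lower in differentiating cells: Kcnd3, Kcnc1, Cacnb2, Kcnk2, Kcna3, Kcnn4, Kcnip3, Kcnab1, Kcnab2, Scn3b, Kcnk3 and Kcna2. That scaling called 25.7% of all genes tested lower and moved their median to -0.47, so the members' count was below its background. Of the 12, 10 are potassium channel genes, against 62 of the 85 members tested. With DESeq2's size factors in edgeR, Scn9a was higher and Kcnc1, Kcnd3, Cacnb2, Kcnk2 and Kcna3 were lower. On the TMM scale, the lower members nearest to the threshold were Kcnc1 at -0.85 (SE 0.29, edgeR adjusted p = 0.0508), Kcnd3 at -0.81 (0.0520) and Cacnb2 at -0.83 (0.0669). Kcnc1 had 53.0, 39.3 and 37.1 in differentiating and 78.3, 99.2 and 64.8 in proliferating libraries on that scale, without overlap. The calls higher were also sensitive to single libraries. No member was called higher without proliferating replicate 2 or without replicate 3, and 1 was without differentiating replicate 1 or without replicate 2.

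Set against the stage difference of input, 0 of 101 windows were called (edgeR interaction, with no other tool run, 5 at an unadjusted p under 0.05, and 0 with TMM scaling), against a background of 0% higher and 0.0278% lower. Among the members with the smallest p were Kcnc1 at a log2 of -2.89 (edgeR adjusted p = 0.0834), Kcnd3 at -2.57 (0.145), Kcnk2 at -2.10 (0.208) and Kcng4, a modifier subunit, at 1.67 (0.450). Negative values mean that ChIP over input was lower in differentiating than in proliferating cells. With IgG in place of input the values turned to 4.34 for Kcnc1 (edgeR adjusted p = 0.841) and 0.16 for Kcnk2 (0.995), while Kcnd3 stayed negative, none of them called. The Kcnc1 window held 2 IgG counts in all, so its 4.34 depends on the prior count. Against input the member median was -0.03, against -0.37 over all genes. Kcnc1 alone was called without differentiating replicate 1. Over gene bodies no member differed between conditions (edgeR, 0 of 122, 8 lower at an unadjusted p under 0.05, and 0 by DESeq2). The background was 0.0366% higher and 0.126% lower. The smallest p belonged to Kcnd3 at -0.20 (edgeR adjusted p = 0.271), Kcna3 at -0.77 (0.278), Kcnn3, a calcium-activated channel, at -0.23 (0.282), Kcnk7 at -0.62 (0.382) and Scn2b at -0.41 (0.382).

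Over whole genes, WT ChIP differed from input at 25 of 122 channel genes, 13 higher and 12 lower (edgeR). The background was 8.43% higher and 21.3% lower. Potassium genes split 7 higher and 7 lower of 86, sodium 5 higher and 1 lower of 14, and calcium 1 higher and 4 lower of 22. Medians were -0.12 for members and -0.14 for all genes. The 5 sodium genes higher were Scn7a at a log2 fold of 0.55 (SE 0.08, edgeR adjusted p = 0.000818), Scn9a at 0.51, Scn1a at 0.42, Scn2a at 0.37 and Scn3a at 0.33. They lie on chromosome 2 in 2 clusters, Scn3a with Scn2a at chr2:65457118-65767447 and Scn1a with Scn9a and Scn7a at chr2:66270781-66784910. Scn1a, mutated in human Dravet epilepsy, had 168, 167 and 171 CPM in differentiating and 149, 171 and 163 CPM in proliferating WT libraries over its body, against 132 CPM in differentiating and 115 CPM in proliferating input. All WT libraries were above input.

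None of these 5 genes was called over IgG. Scn1a had 176 CPM in differentiating and 156 CPM in proliferating IgG, within or near the range of WT libraries, and its log2 fold of WT over IgG was -0.01 (SE 0.07, edgeR adjusted p = 0.968). Scn7a, Scn9a, Scn2a and Scn3a had log2 folds over IgG of 0.12, 0.03, 0.15 and 0.08. In differentiating cells IgG was near WT ChIP at all 5. In proliferating cells the mean WT log2 over input exceeded that of IgG at all 5. It did so most at Scn2a (0.44 against 0.11) and Scn3a (0.31 against 0.06). The values were 0.54 against 0.38 at Scn7a, 0.52 against 0.36 at Scn9a and 0.49 against 0.44 at Scn1a. Summed over the 14 sodium genes, the body signal relative to input was 0.13 ± 0.01 in differentiating and 0.16 ± 0.03 in proliferating WT libraries (log2, SD, n = 3 each). IgG gave 0.07 in differentiating and 0.13 in proliferating cells. Over the 13 genes called higher than input, the median log2 was 0.48 for WT over input and 0.07 for WT over IgG, and IgG over input had medians of 0.42 in differentiating and 0.29 in proliferating cells. Over the 12 called lower, the medians were -0.46 for WT over input and -0.09 for WT over IgG, with -0.44 in differentiating and -0.16 in proliferating cells for IgG over input. These ratios share libraries.

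The other genes called higher over input were mostly long. Kcnt2, a sodium-activated potassium channel of 364.0 kb, had a log2 fold of 0.76 (SE 0.11, edgeR adjusted p = 0.00100), and 342, 373 and 401 CPM in differentiating and 260, 375 and 338 CPM in proliferating WT libraries, against 221 CPM in differentiating and 189 CPM in proliferating input. IgG had 411 CPM in differentiating and 319 CPM in proliferating cells. Kcnj3, a G-protein-gated rectifier, followed at 0.70, and Kcnc2, Kcnh5 and Kcnh8 at 0.48, 0.33 and 0.28. Kcnv1, Cacnb2 and Kcna3 were higher too, at 0.57, 0.19 and 0.76. The 13 genes had a median length of 158.4 kb and the 12 lower ones 20.9 kb. Across members, log10 length and the log2 fold over input had a Pearson r of 0.35 (n = 122), with 0.34 for potassium (n = 86), 0.70 for sodium (n = 14) and 0.49 for calcium genes (n = 22). Over IgG the value was -0.07 for all members, -0.13 for potassium, 0.45 for sodium and 0.36 for calcium genes. Of channel genes of 150 to 400 kb, 8 of 21 were called higher than input, against 297 of 1050 among all genes of that length, with medians of 0.08 and 0.01.

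Among the genes lower than input were Kcnd1 at -0.90 (SE 0.23, edgeR adjusted p = 0.0126) and Cacna1f, the calcium channel of retinal synapses, at -0.81 (SE 0.19, edgeR adjusted p = 0.00797), the only members on the X chromosome. Cacna1f had 24.2, 21.1 and 12.7 CPM in differentiating and 14.1 to 19.2 CPM in proliferating WT libraries, against 33.6 CPM in differentiating and 29.1 CPM in proliferating input. Differentiating replicate 3, with 209 Y-linked CPM, was the lowest. IgG, with 228 and 187 Y-linked CPM, had 7.94 CPM in differentiating and 15.4 CPM in proliferating cells. Among proliferating WT libraries the order ran the other way, with replicate 1 (47.1 Y-linked CPM) at 19.2 CPM and replicate 3 (8.93) at 14.1 CPM. The part of the cells' sex in these values was not tested. On autosomes, Kcnj14 stood at -0.79 (edgeR adjusted p = 0.00458), Cacna1a, the pore of presynaptic P/Q-type channels, at -0.39 (0.00743) and Scn8a, a sodium channel of nodes of Ranvier, at -0.33 (0.0164). Cacng7, Cacnb1, Kcnh4, Kcnip2 and Kcnh6 were also lower, at -0.47, -0.46, -0.46, -0.46 and -0.38. The other 2 lower were Kcna7 at -0.56 and Kcnn1 at -0.33. Without the proliferating input the member calls over input were lost in both directions, as were those over all genes. Without the differentiating input calls became fewer, among members and over all genes alike. Each of these refits leaves 1 input library, so no counts are given. Without proliferating replicate 1 the members called lower numbered 39, where 29.9% of all genes tested were called lower.

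**Figure D4:**
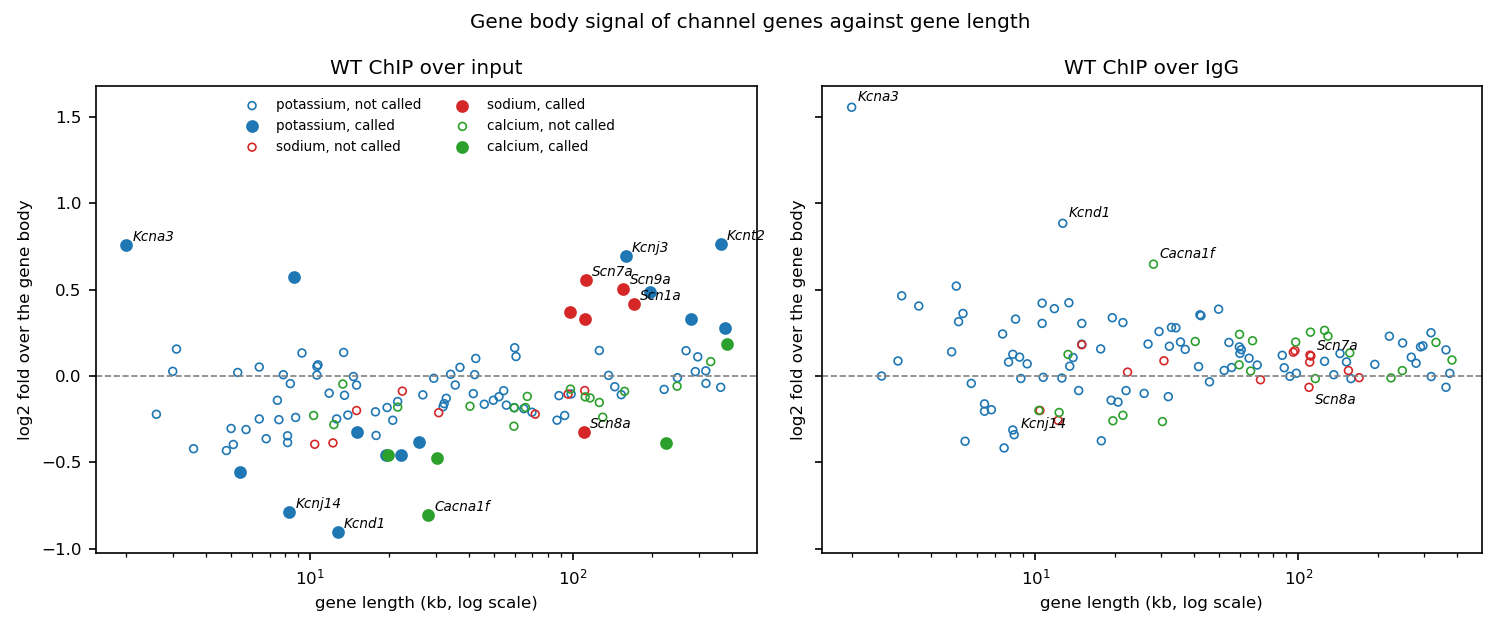
Log2 fold over the gene body against gene length (kb, log scale) for the 122 channel genes, for WT ChIP over input (left) and over IgG (right). Each circle is a gene coloured by class, filled where edgeR called it. Most genes called higher over input are long, and apart from the short Kcna3 they lie between -0.06 and 0.15 over IgG, where none is called.

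Over IgG no channel gene body was called (edgeR, 0 of 122, 10 higher at an unadjusted p under 0.05, and 0 by DESeq2), where the background was 0.54% higher and 0.739% lower. The 5 smallest p belonged to Kcnj15 at 0.35 (SE 0.10, edgeR adjusted p = 0.127), Cacna1e, an R-type calcium channel, at 0.19 (0.128), Kcna3 at 1.56 (0.148), Kcnh1 at 0.25 (0.149) and Kcnd3 at 0.23 (0.174). The Kcna3 gene is 2.0 kb long, so its window makes up a large part of its body. Its body held 32, 33 and 42 counts in differentiating and 28, 12 and 31 in proliferating WT libraries, against 4 counts in differentiating and 2 in proliferating IgG. WT and IgG libraries did not overlap in CPM either, at 2.46 to 2.58 CPM in differentiating and 3.01 to 6.16 CPM in proliferating WT, against 1.44 and 0.792 CPM in IgG.

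In Hbo1 null cells, the channel windows held 40 counts in differentiating and 8 in proliferating cells in all, and 88 and 114 of the 122 windows were at 0. Kat7 itself had 34.3 and 62.4 CPM over its body there, from 11 and 4 counts, against 26.9 to 37.9 CPM in WT ChIP libraries. A count over the whole gene cannot check a deletion of unstated extent, and these do not. Relative to input, the sum of member windows was 0.969 in differentiating null cells (95% exact Poisson interval 0.692 to 1.32) and 0.870 in proliferating null cells (0.376 to 1.72), against 1.16, 0.966 and 1.00 in the 3 differentiating and 1.35, 1.10 and 1.15 in the 3 proliferating WT libraries. The WT values lie inside these intervals, so a loss of the mark at channel gene starts was not detectable at this depth. Depth is not the only limit. Each library is scaled to its own gene body total, so a loss spread evenly over genes would not show at any depth. The differentiating WT values themselves lay close to input. The intervals cover counting error only.

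A list of 30 genes that work with these channels but carry other names, such as the pacemaker Hcn channels, the leak channel Nalcn and the ankyrins that anchor sodium channels, was counted in the same way. Of its windows, 2 of 22 tested were higher than input (median 0.13), where the background was 11.6%. Between conditions 0 of 19 were higher and 1 lower, where the background was 2.03% higher and 4.57% lower. Over gene bodies, 7 were higher and 7 lower than input of 30, where the background was 8.43% higher and 21.3% lower.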

How the data were processed

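Reads were counted per gene by the authors in 12 libraries, over a window of 1 kb at the transcription start and over the gene body. The deposited values are raw read counts, made with bcl2fastq and featureCounts on mm10 per the submitters' processing notes. The aligner, the annotation and the treatment of multi-mapping reads and of strand are not given in the sources used here. Gene lengths are those of the authors' table. Of 27095 IDs, 25204 were matched to a RefSeq symbol (GRCm38.p6) and 1891 were not, so channel genes among those would be missed.

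Counts were tested over all genes with a mean of at least 10 in the libraries of a fit, by edgeR 4.0.16 (quasi-likelihood test, R 4.3.3) with Benjamini-Hochberg adjustment over all genes tested and a threshold of 0.05. Fits between conditions used TMM scaling. Fits against input or IgG used gene body totals as library sizes and a term for condition, since each condition had 1 such library. Class sums have no test. Null ratios carry exact Poisson intervals and low IgG counts exact binomial ones. Scripts were tested on simulated data. Alternatives were DESeq2 1.42.0, other scalings, other filters, each library left out and a replicate block. The DESeq2 test used its own size factors, so it changed the scaling as well as the tool. The same-numbered libraries of both conditions deviated together with correlations of -0.012, -0.033 and 0.004 in start windows, and -0.122, 0.199 and -0.193 in gene bodies. The numbers were therefore not taken as pairs. In gene bodies the largest positive correlation, 0.274, was between proliferating replicate 1 and differentiating replicate 3. These had the most Y-linked counts of the WT libraries in their conditions. Whether they share a source was not tested.

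The members and gene lists were chosen with earlier results of these data known. Named are up to 10 members called in each direction of a comparison, or else the 5 with the smallest p, plus members with textbook roles. Some members these rules name are not reported here. Levels just inside the length limit, neighbours in clusters and the members named under other settings were chosen after their values were seen. The antibody field of the IgG libraries also lists the H3K14ac antibody, and they are taken as IgG by their titles.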

Additional observations from a re-analysis of the deposited data

Results flagged for a closer look

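The 7 genes of potassium channels opened by calcium or sodium ions are listed because every differentiating WT library lay below input and every proliferating one above it. Their summed start windows had log2 ratios to input of -0.03, -0.49 and -0.03 in differentiating and 0.68, 0.49 and 0.03 in proliferating WT libraries. The mean difference, differentiating minus proliferating, was -0.59, and it was not tested. On the same scale all genes stood at 0.09 in differentiating and 0.51 in proliferating libraries, and the 4 calcium channel beta subunits at 0.12 and 0.74. The IgG sums stood at -0.02 in differentiating and 0.22 in proliferating cells. Differentiating replicates 1 and 3 and proliferating replicate 3 lay close to 0.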

How the results depend on the processing

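Start windows called between conditions (3 higher, 0 lower) numbered 1 and 5 with DESeq2 size factors, 0 and 12 with gene body totals, 0 and 0 with the DESeq2 test, 0 and 2 with no filter, and 0 and 0 with a mean count of at least 30, which left 0 members to test. Leaving out a library gave 0 to 2 higher and 0 to 2 lower. With a replicate block 1 was higher, Scn9a, and 0 were lower, and for gene bodies the block left the count at 0. The labels do not say that a number pairs libraries. Start windows called over input (6 and 0) numbered 2 and 1 with TMM, 1 and 0 with DESeq2, and 6 and 1 with no filter. With a mean of at least 30, which none of the called members reached, they numbered 0. Leaving out a WT library gave 3 to 7 higher. Over IgG (3 and 0) the calls numbered 0 with TMM or DESeq2, and 2 and 1 with no filter. There, leaving out a WT library gave 2 to 3 higher. A mean of at least 30 again left none of the called members to test. Gene bodies called over input (13 and 12) numbered 18 and 8 with TMM and 20 and 4 with DESeq2. They numbered 11 to 15 higher and 9 to 39 lower with a WT library left out. The 39 were called where 29.9% of all genes were lower. The interaction gave 0 to 1 lower. Without the proliferating input or IgG library, the calls over that control were lost, as nearly all were over all genes. DESeq2 left many start windows without an adjusted p, and those could not be called. The cause of these changes was not tested. Scaled per window totals, the proliferating class sums were -0.20 for potassium, -0.45 for sodium and -0.31 for calcium. Of single genes, Kcnc1 over input changed sign, at a log2 fold of -0.026 without the proliferating input and 2.86 without the differentiating one. Over 184 results on single genes and 1939 refits, 1674 kept direction and side of the threshold, 99 lost and 23 gained the threshold, and 142, on 71 results, changed sign with no call before or after.

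With a median of 4 to 18 counts per channel window in a WT library, moderate differences at single genes were not detectable. Input and IgG had 1 library per condition, so their spread is assumed to be that of the ChIP libraries, and no test on the null libraries was made.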
